A study of Mus musculus with 2 samples.

Results

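The cytosolic ribosomal protein genes encode the protein part of the ribosome, which has a large (60S) and a small (40S) subunit. They were taken as all genes whose name is Rpl or Rps followed by a number and its suffixes, or Rplp0 to Rplp2 or Rpsa, and that have at least 1 transcript annotated as protein_coding. The rule used names and annotation only, and found 83 of 55450 named genes, of which 51 belong to the large and 32 to the small subunit. Another 6 genes had a matching name but no protein_coding transcript and were left out (Rps4l, Rps12l1, Rpl32l, Rpl6l, Rps3a2 and Rps3a3). Fau and Rack1 encode ribosome components under other names and are given beside the members where they bear on a value.

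The RNA came from bone-marrow-derived macrophages of C57BL/6J mice, phagocytes grown in culture from marrow progenitors. All cells were given lipid A at 100 ng/ml for 12 h. Lipid A is the membrane anchor of bacterial lipopolysaccharide and the part that the receptor TLR4 binds. They were then kept without it for 12 h and given the same dose again for 25 min. Total RNA of the nucleoplasmic fraction, which other labels call nuclear, was depleted of ribosomal RNA and sequenced. The data are 2 libraries of 1 group, biological replicates 1 and 2, started from 500 ng and 1 µg of RNA. Replicate number and starting amount cannot be told apart. The donor entry is the same for both, so differences between them may measure technical spread only. There is no untreated or cytoplasmic group here, so no value below is a response to lipid A, and no p-value was computed.

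Ribosomal protein messages are made in the nucleus, spliced, and exported to be translated at high rates in the cytoplasm. Most begin with a C followed by a run of pyrimidines, the 5′ terminal oligopyrimidine (TOP) tract, through which growth signalling controls their translation. Many of the genes carry small nucleolar RNAs (snoRNAs), guides of ribosomal RNA modification, in their introns. Some ribosomal proteins are also known to bind their own transcripts and favour an alternatively spliced form that is degraded by nonsense-mediated decay (NMD). Unspliced and partly spliced forms of these transcripts occur in the nucleus, so the values below are given both by gene and by transcript model. How such forms divide between the nucleoplasm and the rest of the nucleus was not measured here.

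The gene tables summed to 20196408 expected counts for replicate 1 and 19588980 for replicate 2, the reads that the quantification assigned to annotated genes. All 8 macrophage markers examined were detected, with medians of 206 and 205 TPM, a level per transcript length scaled to a fixed total. None of the 4 lymphocyte and none of the 4 neutrophil markers reached 10 expected counts in both libraries. Of the 4 stromal and endothelial markers only Pecam1 reached it. In bulk RNA, fewer cells of a type and less RNA per cell cannot be told apart.

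The promoters are shown first, since the TOP tract at the start is the sequence feature these genes are known for. Windows of RefSeq (GRCm38.p6) were found for 63 of the 83 genes, each 250 bases before to 50 after the annotated start. A C stood at the annotated start in 20 of the 63 windows (31.7%), against 16.3% of all 32851 windows in the table. The letters CTTTC, on the sense strand and beginning within 10 bases of the start, were found in 14 (22.2%), against 3.10% of all windows. CCGGAAG on either strand, the core letters that ETS-family factors bind, was in 24 (38.1%) against 8.86%. GATGGCG on either strand, part of the site of the factor YY1, was in 5 (7.94%) against 3.49%. The first motif can share end bases with the reverse complement of the second. These shares describe letters in annotated windows, and no binding or start site was measured.

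Below are 30 bases, 15 on each side of the annotated start with the start as base 16, of genes with a CTTTC there, the copy nearest to the start in capitals. They were chosen to show how the tract sits relative to the start in genes of high, middle and low level.
Rps27, chr3:90213634-90213663, minus strand: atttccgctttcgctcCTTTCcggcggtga
Rpl38, chr11:114668565-114668594, plus strand: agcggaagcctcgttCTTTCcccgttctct
Rplp2, chr7:141447636-141447665, plus strand: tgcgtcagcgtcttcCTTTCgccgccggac
Rpl28, chr7:4792950-4792979, plus strand: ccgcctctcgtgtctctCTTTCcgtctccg
Rps10, chr17:27635230-27635259, minus strand: gcgccgcgcacgccccttcCTTTCcagcct
Rpl39l, chr16:10170213-10170242, plus strand: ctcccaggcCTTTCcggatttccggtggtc
In Rpl38 and Rplp2 the CTTTC began at the RefSeq start itself, and in Rps27 at the next base, after a C. Those RefSeq starts lay 56 (Rpl38), 61 (Rplp2) and 3 (Rps27) bases from a start annotated in GENCODE. The place of the tract therefore depends on the annotation. Rpl39l, which held 0 and 1 counts, carries the letters too, but they begin 6 bases before the start and end before it. Rpl10l and Rpl3l, with 0 counts in both libraries, had no CTTTC within 10 bases of the start. These few windows do not show whether the motif goes with level.

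Of the 83 genes, 80 had at least 10 expected counts in both libraries, which is called detected here, and 76 had at least 100. All 32 small subunit and 48 of 51 large subunit genes were detected. Together the 83 genes took 38624 expected counts in replicate 1 and 41358 in replicate 2. That is 0.191% (95% Wilson interval 0.189 to 0.193) and 0.211% (0.209 to 0.213) of each library, where intervals cover counting error only. Per length they made up 0.361 and 0.338% of all TPM, and 0.939 and 1.10% of the TPM of protein-coding genes. The direction between the libraries thus depended on the base.

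The median level was 36.4 TPM in replicate 1 and 37.8 in replicate 2, or 37.1 ± 1.02 (SD, n = 2). All detected protein-coding genes (11375, 51.8% of those annotated) had medians of 9.35 and 7.83 TPM. Of the 80 detected members, 77 and 79 lay above those medians. The lower and upper quartiles of the detected members were 24.0 and 55.5 TPM in replicate 1, and 23.6 and 48.1 in replicate 2. Apart from the stalk, the ribosome holds its proteins in equal numbers. Detected levels ran from 5.74 to 243 TPM and from 6.21 to 141 TPM. The order of the genes was similar in both libraries, with a Pearson r of 0.90 and a Spearman rho of 0.89 over 80 genes that share the same 2 libraries. Level and effective length were only weakly related across the 80 genes (r on log scales -0.20 and -0.18).

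**Figure D1:**
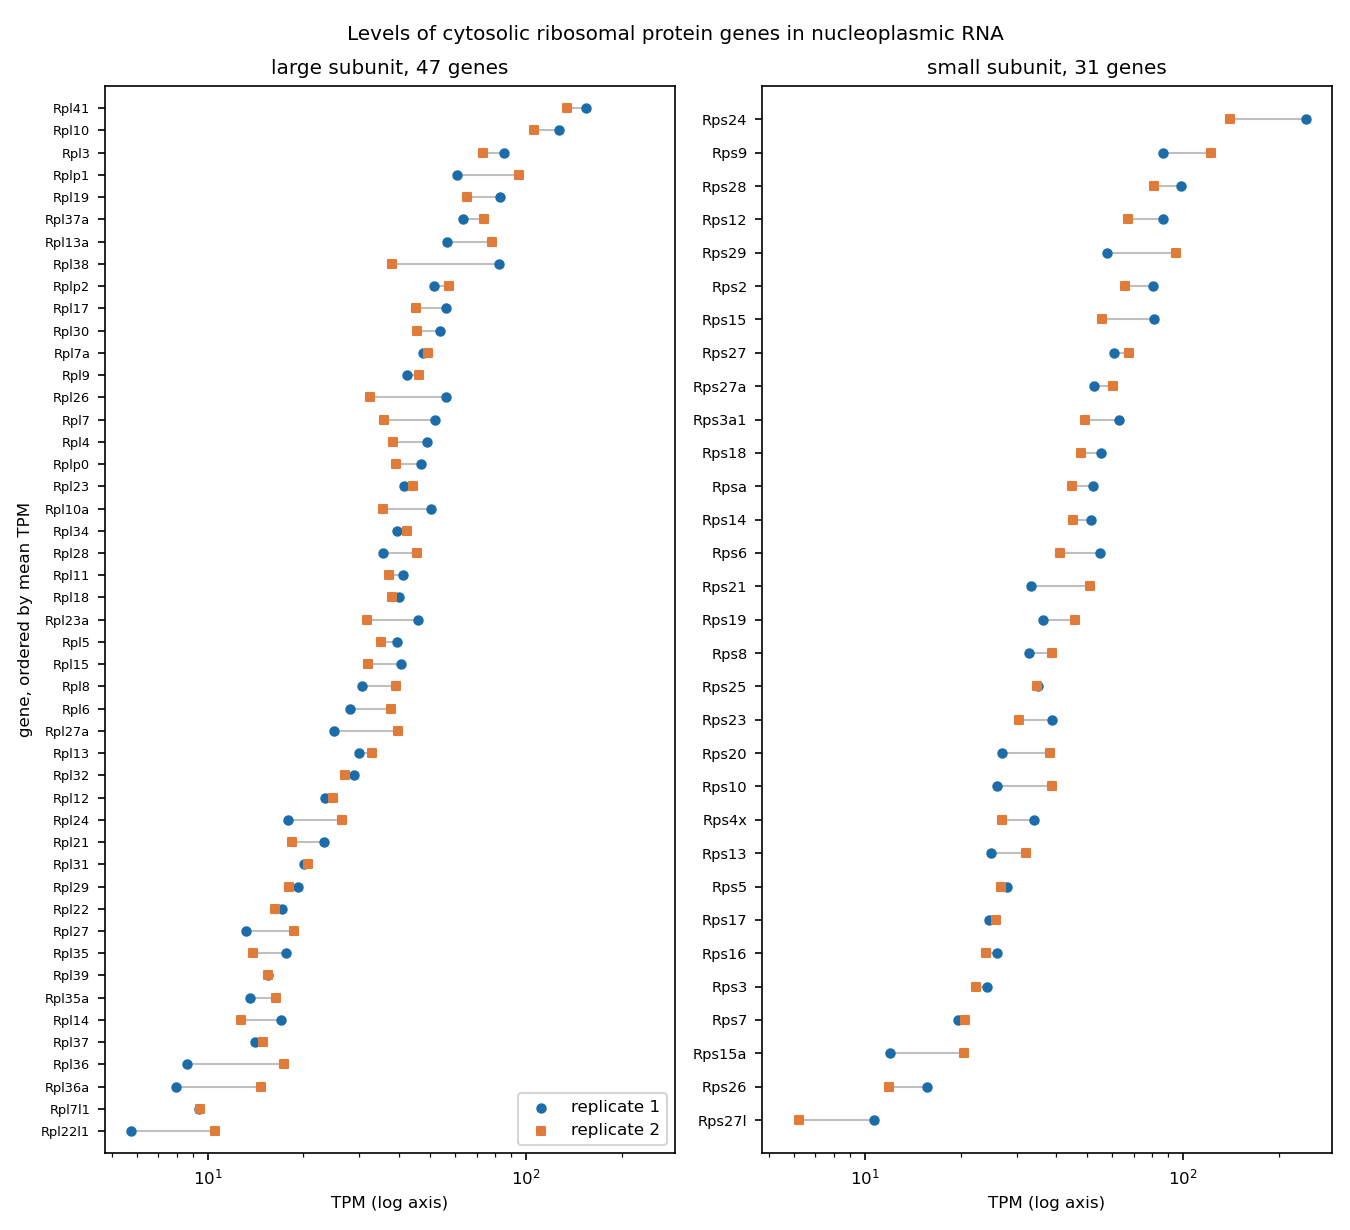
TPM of 78 of the 80 detected genes (horizontal log axis), large subunit left and small subunit right, ordered by mean level, with circles for replicate 1, squares for replicate 2 and a line joining them. Rps24 stands highest, at 243 TPM in replicate 1, and long lines mark genes such as Rpl38 and Rps24 whose libraries differ.

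The highest gene was Rps24 (chr14:24487125-24496959, plus strand, GRCm38), a small subunit protein whose gene is mutated in Diamond-Blackfan anaemia. It was listed at 243 TPM in replicate 1 and 141 in replicate 2, with nearly the same 2178 and 2170 expected counts. The 2 libraries assigned those counts to different models. Rps24-201, a coding transcript of 468 bases, took 1002 and then 543 counts, or 204 and 88.5 TPM. The retained-intron models Rps24-212 (4059 bases) and Rps24-204 (2769 bases) together with other non-coding models held 20.7 and 36.6% of the counts. The mean effective length assigned to the gene was 450 bases in replicate 1 and 709 in replicate 2, so the TPM differed while the number of reads did not.

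Rpl41, which encodes one of the smallest proteins of the large subunit, followed at 154 and 134 TPM. Rpl10 (X chromosome), which is needed for subunit joining late in maturation, stood at 127 and 106 TPM. Rps9, a small subunit protein near the mRNA entry, was at 86.7 and 122 TPM and Rps28 at 98.8 and 81.2. Only Rps24, Rpl41 and Rpl10 passed 100 TPM in both libraries. The next were Rpl3 (85.3 and 73.6), Rplp1 (60.7 and 95.4), Rps12 (86.4 and 67.3), Rps29 (57.5 and 95.02) and Rpl19 (82.7 and 65.1). The libraries of these neighbours overlap, so their order is not fixed by 2 samples.

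At the other end were the diverged copies, whose names end in l or l1. Rpl3l, the copy of Rpl3 known from striated muscle, and Rpl10l, the copy of Rpl10 known from testis, had 0 counts in both libraries. Rpl39l, a copy of Rpl39 also known from testis, had 0 and 1. A count of 0 allows up to 1.49e-05% of the expected counts in replicate 1 and 1.53e-05% in replicate 2 (3 counts). The parent genes were all detected, Rpl3 and Rpl10 among the highest and Rpl39 at 15.4 and 15.5 TPM.

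The other 3 copies were detected at low level. Rpl22l1, the copy of Rpl22, had 5.74 and 10.5 TPM, against 17.2 and 16.3 for Rpl22. Its counts were 98 and 157, and the deposited intervals of its TPM were wide, 5.14 to 110 and 9.29 to 40.9. Rps27l, a copy of Rps27 that p53 is known to induce, had 10.7 and 6.21 TPM, against 60.8 and 67.7 for Rps27. Rpl7l1 had 9.39 and 9.45 TPM, against 51.7 and 35.8 for Rpl7. Rps27l and Rpl7l1 were below their parents in both libraries. For Rpl22l1 the order depended on the estimate, since its deposited posterior mean TPM was 40.6 and 20.8, above the posterior means of 17.45 and 16.3 for Rpl22.

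Among the genes without a copy suffix, Rpl36a (7.94 and 14.7 TPM), Rpl36 (8.62 and 17.4), Rps26 (15.7 and 12.0) and Rpl37 (14.1 and 14.9) were lowest by the mean of the 2 libraries. Rpl36 and Rpl36a rest on few counts, 28.01 and 75.02 for Rpl36 and 45.8 and 105 for Rpl36a.

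The 2 subunits had like levels. The large subunit's median was 39.4 TPM in replicate 1 and 35.5 in replicate 2, and the small subunit's was 35.7 and 39.9. The difference of medians, large minus small on the log2(TPM + 1) scale, was 0.14 and -0.16, or -0.01 ± 0.21 (SD, n = 2), so its sign differed between the libraries.

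The proteins of the P stalk, which recruits the elongation factors, are encoded by Rplp0 (46.8 and 39.2 TPM), Rplp1, Rplp2 (51.3 and 57.5) and, at its base, Rpl12 (23.4 and 24.7). Rpl12 was the lowest of these 4 in both libraries. The partners of 5S ribosomal RNA, which also bind the p53 regulator Mdm2 when assembly fails, were Rpl5 at 39.5 and 35.2 TPM and Rpl11 at 41.0 and 37.1. Both lay near the median of the set in each library.

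Near the peptidyl transferase centre, Rpl10 and Rpl3 were highest, Rpl4 had 48.7 and 38.4 TPM and Rpl8 30.5 and 39.2. Around the tunnel through which the new protein leaves, 7 genes ranged from 15.4 (Rpl39) to 82.7 TPM (Rpl19) in replicate 1 and from 13.9 (Rpl35) to 65.1 (Rpl19) in replicate 2. The tunnel genes thus reached from below the lower quartile of the set to above the upper one in both libraries.

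In the head of the small subunit, 11 genes had medians of 36.4 and 45.9 TPM. The highest was Rps28 in replicate 1 and Rps29 in replicate 2, and the lowest in both was Rps3 (24.2 and 22.3). Rpsa, Rps14 and Rps26, near the mRNA exit, had 52.0 and 44.6, 51.3 and 45.2, and 15.7 and 12.0 TPM. Rps26 was the low one of the 3 in both libraries. Rps6, the substrate of S6 kinase, was at 54.7 and 41.1 TPM, and Rps27a, made as a fusion with ubiquitin, at 52.4 and 60.0. Rack1 was at 41.5 and 37.0 and Fau at 151 and 91.7 TPM, so both lie within the range of the members.

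Rpl13a and Rps3 have roles in inflammation outside the ribosome, Rpl13a in interferon-dependent repression of translation and Rps3 as a partner of NF-kappaB. Rpl13a stood at 56.4 and 78.1 TPM and Rps3 at 24.2 and 22.3. The 9 genes of the Diamond-Blackfan anaemia list, an inherited failure of red cell production, had medians of 26.1 and 35.2 TPM. They reached from Rpl35a (13.6 and 16.4) and Rps26 up to Rps24. The low place of Rpl35a depends on the quantification, as given with the pseudogenes below.

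The mitochondrial ribosome is built from a separate family, encoded by nuclear genes named Mrpl or Mrps. All 78 were detected, with medians of 5.46 and 5.05 TPM. The cytosolic set was higher by 2.53 and 2.68 on the log2(TPM + 1) scale, or 2.61 ± 0.11 (SD, n = 2), and only 3 and 2 of the 78 exceeded the lower quartile of the detected cytosolic genes. TMM-normalised CPM, a count scaled to library size, which is not divided by length, gave a smaller difference of 1.64 ± 0.12 (SD, n = 2). The 16 ribosome biogenesis factors, all detected, had medians of 7.95 and 6.75 TPM, led by nucleolin, Ncl (68.0 and 36.4). The 15 translation factors and other TOP messages, all detected, had medians of 39.4 and 24.7 TPM, with Eef1a1, the elongation factor, highest at 458 and 362. In replicate 1 that list and the ribosomal proteins had close medians, and in replicate 2 the ribosomal proteins were higher.

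**Figure D2:**
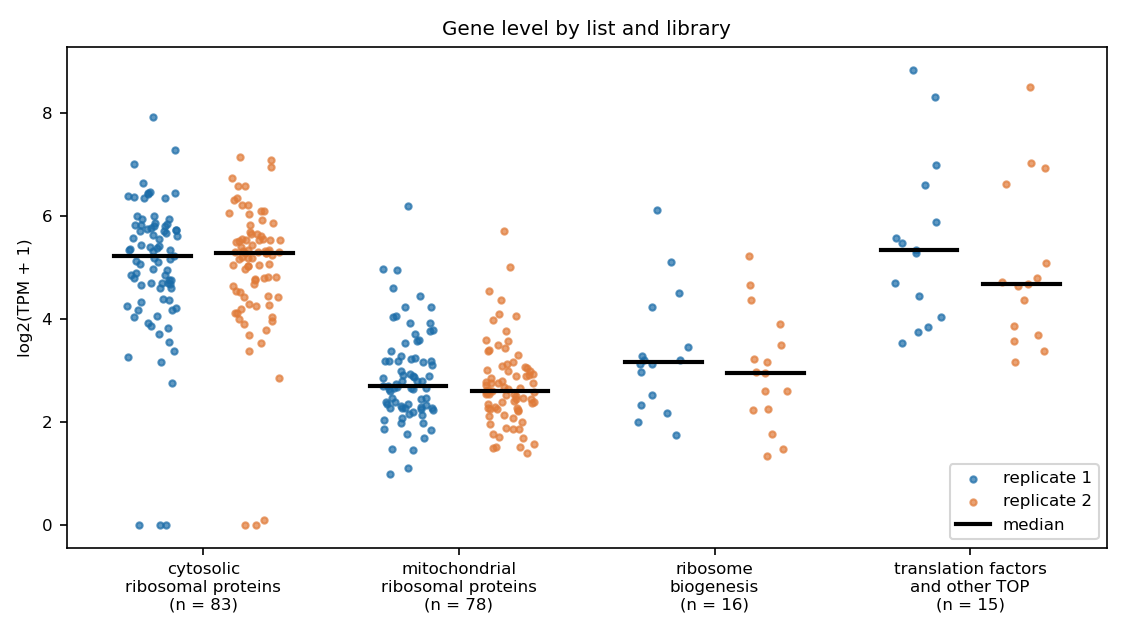
Level of each gene on the log2(TPM + 1) scale (vertical axis) in 4 lists, replicate 1 left and replicate 2 right in each, with black bars for medians. The cytosolic ribosomal proteins sit 2.53 and 2.68 above the mitochondrial ones by median, and the 3 copies not detected lie at the foot of the first list.

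The 83 genes have 498 annotated transcripts, 232 of them protein_coding, 176 retained_intron, 65 processed_transcript (spliced but with no reading frame annotated) and 25 nonsense_mediated_decay. Most of the signal lay on coding models. They took 75.8 and 75.4% of the TPM of the 83 genes, retained_intron models 17.8 and 17.1%, processed transcripts 3.41 and 4.35% and NMD models 3.06 and 3.12%. The share on all models other than protein_coding, called the non-coding share here, was 24.4 ± 0.269% of TPM (SD, n = 2). By expected counts it was 29.03% (95% Wilson interval 28.6 to 29.5) and 27.6% (27.1 to 27.99). Over all 8406 protein-coding genes with at least 100 counts it was 22.6 and 25.2% by TPM, and 16.9% by counts in both libraries. Retained_intron models took 23.4 and 20.6% of the members' counts, against 12.6 and 12.5% over the 8406 genes, and NMD models 2.85 and 3.28% against 2.28 and 2.36%. By counts, then, the summed share of the ribosomal protein genes was above that of protein-coding genes, and by TPM it was near it.

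The gene with the most counts on such models was Rpl3. It lies at chr15:80077791-80091868 on the minus strand and encodes a protein that reaches the peptidyl transferase centre. The retained-intron model Rpl3-204 of 1877 bases took 1367 and 907 expected counts, 59.6 and 44.6% of the gene's. It also held 15.2 and 10.6% of all retained_intron counts of the 83 genes, more than any other such model. Without Rpl3 the non-coding share of the set by counts was 25.6 and 25.4%, still above that of all protein-coding genes. The coding model Rpl3-201 took 357 and 593 counts. Rpl3 overlaps Syngr1 on the other strand. Whether the counting used strand was not stated in the labels or file notes.

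The intron that Rpl3-204 keeps is intron 3 of 9 of the coding model, 583 bases at chr15:80081032-80081614 between coding exons. The ends of this and of other kept introns are printed to show that these are introns with the usual GT and AG ends, in capitals, with up to 8 exon bases on the outer side. They were read from GENCODE M21 transcripts (GRCm38) on the gene's own strand.
Rpl3 intron 3, first bases: aagaactgGTaagaggctcttgggttccct
Rpl3 intron 3, last bases: caactgtgctctgctcctgaAGgcacaagt
Rpl12 intron 4, first bases: gaagaacaGTgagtcggccccactccctgg
Rpl12 intron 4, last bases: gccctgtacttgctttctgcAGttaaacac
Rps20 intron 1, first bases: ccatgGTgaggtggggggcgtcgccac
Rps20 intron 1, last bases: tttcccgcctgggtgataacAGgcatttaa
Rpl12 intron 4 of 6 (chr2:32963067-32963496, plus strand, 430 bases) holds the snoRNA gene Snora65 and is kept in Rpl12-207, which took 65.5 and 39.2 counts. Rps20 intron 1 of 3 (chr4:3835292-3835483, minus strand, 192 bases) is kept in Rps20-201, at 88.5 and 230 counts. Not every model of this biotype keeps a whole intron, since some begin or end inside one. Models that keep a whole intron of some coding transcript took 74.0 and 71.9% of the retained_intron counts.

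By gene, the non-coding share varied from 0 to over 90%. Its median over the 76 genes with at least 100 counts was 19.6 and 19.0% of TPM, against 23.2 and 25.1% over all 8406 protein-coding genes. In 13 of the 76 (17.1%) it passed 50% in both libraries, against 16.3% of all 8406, a like share. Counting only genes with an annotated non-coding model, it was 13 of 69 (18.8%) against 19.3%. By kallisto-layout TPM it was 21 of 76 (27.6%) against 28.1% of the 8406. The count of such genes was thus near the background in both tables. The genes kept their places between the libraries, with a Spearman rho of 0.93 and a Pearson r of 0.94 over 76 genes. Just above the line in both libraries were Rpl10 (50.04 and 51.8%) and Rpl23 (55.1 and 50.7%), and just below it in 1 library was Rpl27a (57.1 and 49.6%).

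Rps16 had the largest share, 90.1 and 93.0% of its TPM. Most of it lay on Rps16-203, a retained-intron model of 518 bases with 136 and 118 counts, while the coding Rps16-201 had 45.5 and 33.5. Rps16-203 keeps no whole intron of a coding transcript. Rpl12, whose product sits at the base of the stalk, had 85.5 and 86.6%, led by its NMD model Rpl12-201 with 157 and 144 counts. In the kallisto-layout table, a second quantification that the file notes derive from the reads, Rpl12-201 held only 12.0 and 5.16 counts. The lead of that model therefore depends on the table.

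Rpl5 had 87.5 and 76.9%, spread over 3 retained-intron models, Rpl5-204 (177 and 142 counts), Rpl5-205 (157 and 103) and Rpl5-202 (118 and 150). Rpl5-204 has a snoRNA gene inside an exon. Models that keep a whole intron of a coding transcript took only 1.19 and 2.29% of the counts of Rpl5. Its partner Rpl11 had 25.6 and 34.8%, so these 2 partners of the 5S RNA, alike in level, differed in the share in both libraries. Rps23, which lies at the decoding centre, had 78.6 and 77.2%, but on different models. The retained-intron model Rps23-202 led in replicate 1 with 103 counts against 46.0, and the processed transcript Rps23-203 in replicate 2 with 160 against 69.2. No counts of Rps23 lay on a model that keeps a whole intron.

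Rps20 shows how the unit matters. It had 72.5 and 80.2% of TPM on non-coding models but only 20.2 and 30.7% of counts, because its coding model Rps20-203 is 3706 bases long and Rps20-201 is 582. Rpl37 had 74.4 and 65.1% on retained-intron models, mainly Rpl37-205, but no counts on a model that keeps a whole intron.

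In Rpsa, the laminin receptor gene, the share was 69.0 and 80.2%, and the NMD model Rpsa-206 had 322 and 442 counts, the most of any NMD model of the set. Rpl13a, with 63.7 and 63.5%, had 87.0 and 115 counts on its NMD model Rpl13a-216. The retained-intron model Rpl13a-213 held more TPM than Rpl13a-216, 21.7 and 16.2 against 10.01 and 11.2. Another NMD model, Rpl13a-205, had 0 and 109.7 counts. By counts the non-coding share of Rpl13a was 41.3 and 62.9%, so the models differed between the libraries. The 4 NMD models with the most counts held 77.9 and 61.8% of all NMD counts of the 83 genes. The NMD signal was therefore concentrated in 4 of the 25 such models.

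**Figure D3:**
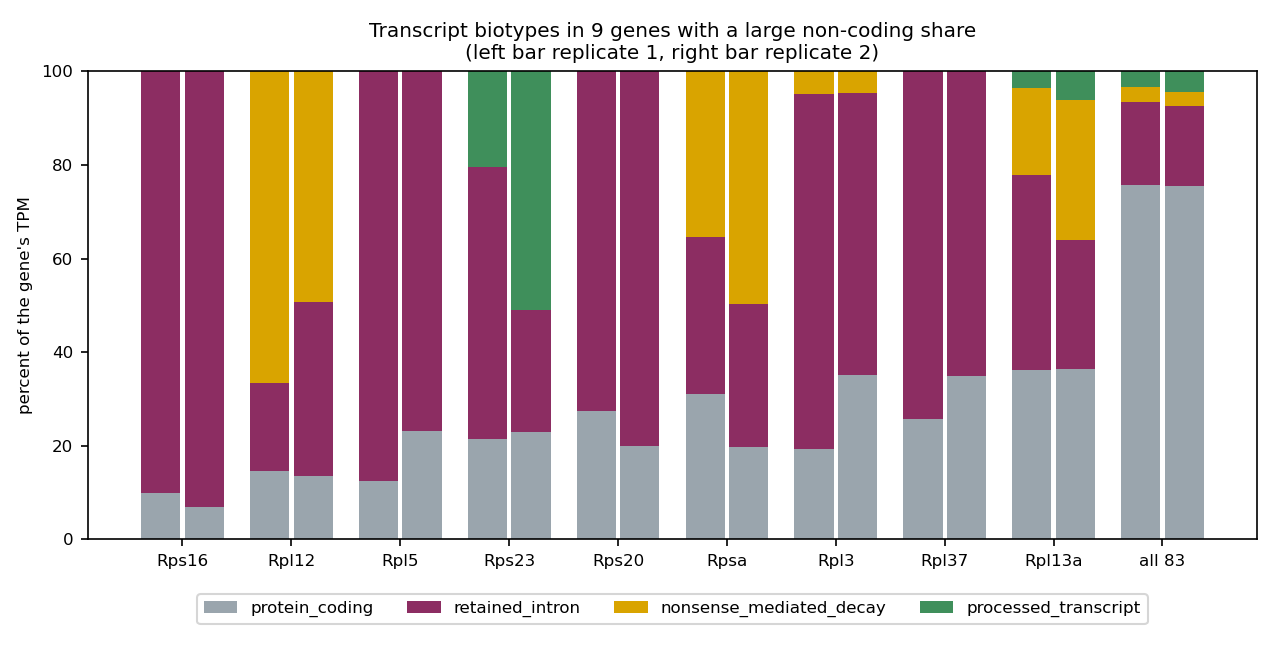
Percent of each gene's TPM (vertical axis) by transcript biotype for 9 of the genes with the largest non-coding share and for all 83 together, with replicate 1 in the left and replicate 2 in the right bar. Models annotated as retained_intron fill most of Rps16, Rpl5, Rps20, Rpl3 and Rpl37, though not all of them keep a whole intron. NMD models are the largest non-coding part in Rpl12 and Rpsa. All 83 have 75.8 and 75.4% on coding models.

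At the other end, 11 of the 83 genes have no non-coding model annotated and so have a share of 0 by construction, the 3 copies not detected and Rplp1, Rps15, Rpl38, Rps3a1, Rpl17, Rpl32, Rpl29 and Rpl36. Among the highest genes, Rps24 had 4.62 and 15.6%, Rps28 2.93 and 4.78% and Rpl19 8.32 and 4.19% of TPM, while Rpl10 and Rpl3 were over 50%. A high level thus went with both small and large shares.

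The genes that carry snoRNAs had larger non-coding shares. The annotation places 58 snoRNA genes inside 30 of the 83 genes, on the same strand, and all 30 had at least 100 counts. Their median non-coding share was 32.5 and 32.8% of TPM, against 13.8 and 14.6% for the other 46. Of the 13 genes over 50% in both libraries, 11 were among the 30 hosts (36.7%) and 2, Rps23 and Rpl10a, among the other 46 (4.35%). Outside the set, 25.1% of 171 protein-coding snoRNA hosts and 16.1% of 8159 other protein-coding genes passed 50%. By counts the medians were 28.5 and 30.4% against 16.7 and 13.1%, and 6 of 30 against 4 of 46 passed 50%. Outside the set, 17.0% of hosts and 10.7% of other genes passed 50% by counts. Models of any biotype that keep a whole intron of a coding transcript showed this order in replicate 2 but not in replicate 1. Their median share of counts was 6.01 and 11.1% in hosts, against 8.66 and 7.98% in the others. Hosts and other genes had a similar median number of non-coding models (3.5 and 3) and similar median levels (40.5 and 38.5 TPM against 39.7 and 38.0).

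Models with a whole snoRNA gene inside an exon took 19.0 and 17.2% of the non-coding counts of the set. With them left out, the hosts' medians were 24.3 and 25.6% and 9 of 30 passed 50%. Protein-coding genes outside the set showed the same order, with medians of 35.9 and 37.7% of TPM in 171 snoRNA hosts against 23.1 and 25.0% in 8159 other genes. By median TPM share, members without a snoRNA gene lay below those 8159 genes. By counts they lay above them, at 16.7 and 13.1% against 9.42 and 10.5%. The larger shares of hosts are thus not shown to be particular to ribosomal protein genes. Not all hosts followed it. Rpl23a, host of Snord42a, Snord42b and Snord4a, had 2.38 and 3.65%. The part of the snoRNAs' own reads in these values was not tested.

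**Figure D4:**
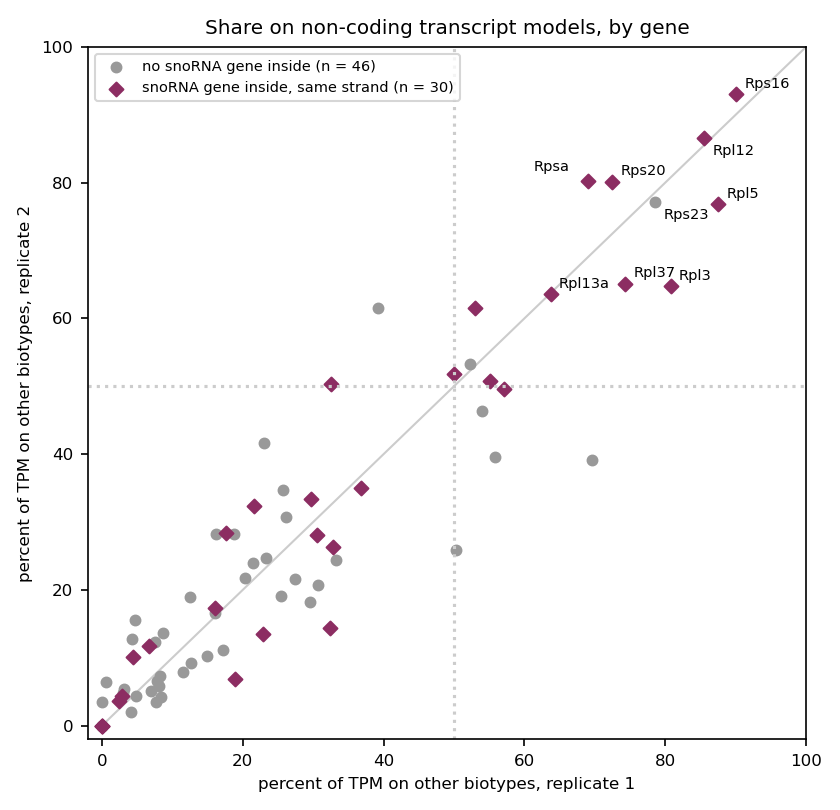
Percent of each gene's TPM on non-coding models in replicate 1 (horizontal) and replicate 2 (vertical) for the 76 genes with at least 100 counts, with diamonds for the 30 snoRNA hosts and circles for the 46 others. Dotted lines mark 50%, and 11 diamonds but 2 circles lie in the upper right field.

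Ribosomal protein genes have many processed pseudogenes, copies made from spliced messages, and reads can be split between a gene and its copies. The annotation names 292 pseudogenes after 60 of the 83 genes. They took 3.13 and 2.18 expected counts per 100 counts on the members, or 2.66 ± 0.667 (SD, n = 2). The burden was uneven. Rpl36a had 98.0 and 19.5 pseudogene counts per 100 of its own, Rpl36 42.8 and 50.6, and Rpl31 33.8 and 31.2. Rps6-ps4, a copy of Rps6, held 176 and 36.5 counts. The levels of Rpl36a, Rpl36 and Rpl31 are uncertain for this reason, and copies annotated under other names were not counted. In the kallisto-layout table Rpl28 had 37.4 and 54.6 per 100, against 0.571 and 1.37 in the RSEM-layout table. Rps23 had 41.8 and 37.3 there against 12.7 and 6.69, and Rps16 30.8 and 33.4 against 13.4 and 11.0. The values of these 3 genes are uncertain too. The 2 quantifications also divided reads differently. As a share of all member counts, Rpl36 in the kallisto-layout table was 2.57 and 1.58 times its share in the RSEM-layout table. Rpl35a was 1.72 and 1.94, Rpl12 0.375 and 0.342 and Rps12 0.463 and 0.377 times. The kallisto-layout TPM of Rpl35a was 24.1 and 7.28, above the set's medians of 22.7 and 5.65 in that table.

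Overlapping genes are a further limit. 5 members overlap another gene on their own strand (Rpl19, Rpl13a, Rps10, Rpl13 and Rpl24) and 23 overlap one on the other strand, among them Rpl3, Rps28, Rpl5, Rpl12 and Rpl22l1.

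Finally, the 2 libraries were compared with each other. Over 14587 genes with at least 10 counts in both, the median log2 ratio of replicate 2 over replicate 1 was -0.21 on the log2(TPM + 1) scale, and that of the 80 members was -0.07. Relative to all genes the members' median was therefore higher in replicate 2 by 0.14, and 51 of the 80 lay above the median of all genes. On TMM-normalised CPM it was higher by 0.23, with 65 of 80 above. In the kallisto-layout TPM as deposited the median was -0.25, on the other side, and with those values rescaled to protein-coding genes it was 0.21. With 1 library on each side these differences have no replicate check.

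Past 1.5-fold from the median of all genes, 15 of 80 members were higher in replicate 2 (18.8%), against 8.52% of all genes tested. Lower were 2 of 80 (2.5%), against 6.77%. The other 63 lay within 1.5-fold. In the kallisto-layout TPM as deposited the direction turned, with 0 of 80 higher, against 21% of all genes, and 10 lower (12.5%), against 12.6%. With the same values rescaled to protein-coding genes, 13 were higher, against 10.3%, and 0 lower, against 7.66%. Only the scale relative to the pseudocount of 1 differs between these 2 settings. The spread of the log2 ratio over the members, an SD of 0.42, was near that over all genes tested, 0.46. Rpl38, a short protein of the large subunit, was among the lower ones (82.0 and 38.1 TPM, 247 and 154 counts). It did not pass 1.5-fold on CPM, where no member was lower, against 7% of all genes, and 15 were higher (18.8%), against 9.55%. Of those 15, 11 were also higher on TPM.

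The 5 with the largest ratio upward were Rpl36, Rpl36a, Rpl22l1, Rps15a and Rps29. For Rps29 the counts were 201 and 429, and the ratio relative to all genes was 0.92 on TPM and 1.15 on CPM. Rpl36, Rpl36a and Rpl22l1 are the genes of few counts described above. Rps15a went opposite ways in the 2 units. It had 630 and 442 counts but 12.0 and 20.5 TPM, so relative to all genes it was higher by 0.93 on TPM and at -0.36 on CPM. Most of its counts lay on Rps15a-204, a coding model of 5179 bases with 580 and 355 counts. In replicate 2, 15.8 counts were put on Rps15a-203, of only 250 bases, and these few reads made 9.80 TPM.

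Downward, the next named genes after Rpl38 were Rps24 at -0.58, Rpl26 at -0.56 (55.9 and 32.3 TPM) and Rps27l at -0.49. Rps24 was at 0.13 on CPM. In all, 18 of the 80 genes lay on opposite sides of the median of all genes on the 2 scales. The libraries differ in the length subtracted to give effective length, 221 bases in replicate 1 and 186 in replicate 2 for member transcripts over 2000 bases. This bears most on short transcripts such as those of Rpl38 (371 bases) and Rps29 (390 bases), and its part in each ratio was not tested.

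**Figure D5:**
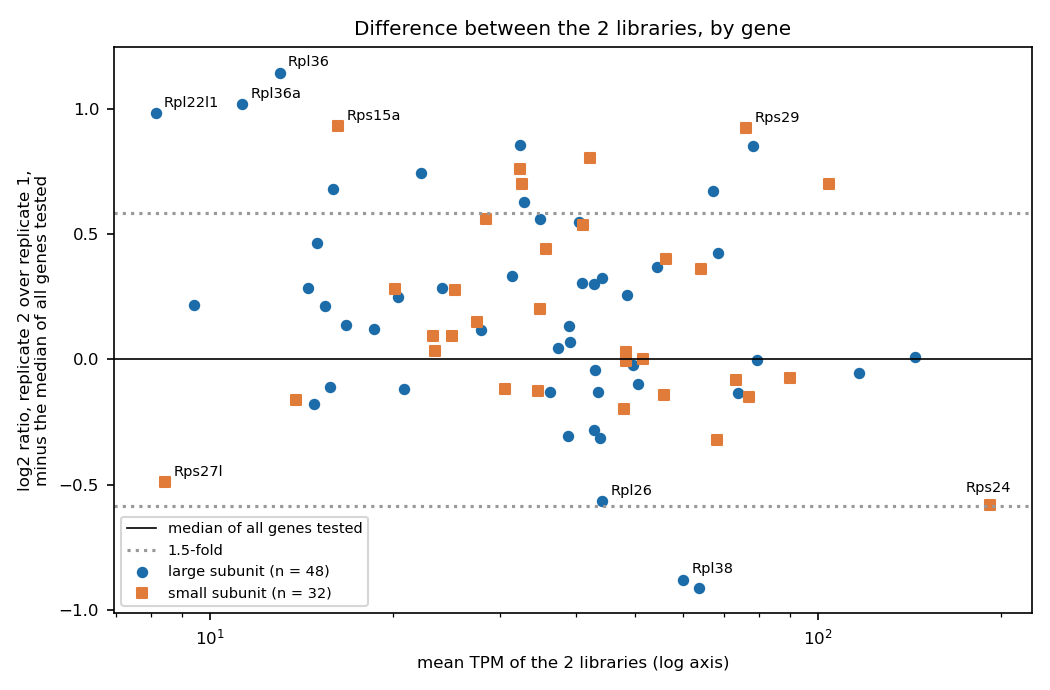
Log2 ratio of replicate 2 over replicate 1 on the TPM + 1 scale, minus the median of all 14587 genes tested (vertical), against mean TPM (horizontal log axis) for the 80 detected genes, circles for the large and squares for the small subunit. Dotted lines mark 1.5-fold, with 15 genes above the upper and 2, Rpl38 among them, below the lower.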

How the data were processed

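Ribosomal-RNA-depleted nucleoplasmic RNA of 2 libraries was used. Expected counts and TPM per gene and transcript were deposited by the authors, in columns laid out as RSEM writes them. Per the deposited file notes they refer to mm10 and GENCODE M21. Another deposited table, of kallisto layout, holds estimated counts and TPM per transcript. Neither program nor strand setting is given in the sources used here. Gene and transcript names and biotypes came from the deposited transcript identifiers, and coordinates and snoRNA genes from GENCODE M21.

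The members and lists were chosen with earlier results of these data known. Named genes were the 10 highest and 10 lowest members, the 10 largest non-coding shares, the 5 largest ratios each way, copies ending in l or l1 and the role groups. Differences of medians and ratios used a pseudocount of 1, which understates differences of low genes. TMM factors came from edgeR 4.0.16 and size factors from DESeq2 1.42.0 (R 4.3.3), with expected counts rounded first. No test between groups was possible with 1 group. The ratio calculation was tested on simulated counts scaled to library size, and the share calculation on a few values set by hand. Those checks did not cover TPM, effective lengths or the assignment of reads to transcripts. Protein sequences were not used here. Some genes that the naming rule covers are not reported here, though counts, medians and sums over the set include them.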

Additional observations from a re-analysis of the deposited data

How the results depend on the processing

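The labels number the libraries of 1 group only. No paired analysis was possible because there is no second group to pair with. Of the results given for the whole set, the median TPM was 37.1 as reported and 37.0 with the posterior mean. It was 14.2 ± 12.1 (SD, n = 2) with kallisto-layout TPM, from 22.7 in replicate 1 and 5.65 in replicate 2. With that table rescaled to protein-coding genes it was 89.1, from 81.7 and 96.5. Over detected members it was 38.6. Leaving out 1 library gave 36.4 to 37.8. The difference between large and small subunit had no fixed sign. It was -0.01 as reported, -0.12 ± 0.075 (SD, n = 2) on CPM, and 0.030 ± 0.021 with kallisto-layout TPM. Leaving out 1 library gave -0.16 to 0.14. The cytosolic set stayed above the mitochondrial one, by 2.80 with a pseudocount of 0.1, 1.64 with TMM-normalised CPM, 2.48 with posterior mean TPM, 1.92 with kallisto-layout TPM, 2.35 with it rescaled and 2.53 to 2.68 leaving out 1 library. The non-coding share was 24.4% of TPM and 28.3% of expected counts, 29.3% of kallisto-layout TPM and 31.7% of its counts. It was 24.2 to 24.6% leaving out 1 library, and 22.3% without models holding a snoRNA gene, an alternative chosen after seeing the data. Members over 50% numbered 13 as reported, 10 by expected counts, 14 with no minimum of counts, 11 without models holding a snoRNA gene and 21 by kallisto-layout TPM, where the share of all protein-coding genes was 28.1%.

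The members' median log2 ratio between libraries was 0.14 as reported, 0.23 on CPM, 0.24 over DESeq2 size factors, 0.16 with at least 100 counts and 0.073 with at least 1. It was -0.25 with kallisto-layout TPM and 0.21 with that table rescaled, the latter chosen after seeing the data. As the scaling alone separates the last values, the pseudocount relative to the scale moved the sign. Members over 1.5-fold higher, with the share of all genes tested that were higher, numbered 15 (8.52%) on TPM, 15 (9.55%) on CPM, 16 (13.4%) over size factors, 14 of 76 (8.72%) with at least 100 counts, 14 (7.41%) with at least 1, 0 (21%) with kallisto-layout TPM and 13 (10.3%) rescaled. Lower in the same order were 2 (6.77%), 0 (7%), 0 (10.9%), 2 (5.98%), 4 (8.05%), 10 (12.6%) and 0 (7.66%). Pseudogene counts per 100 were 2.66 as reported, 3.60 in the kallisto-layout table and 2.18 to 3.13 leaving out 1 library. The comparison of protein length and identity with the copies was not run. With 2 libraries, single genes under 100 counts, such as Rpl36, are set by few reads.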

Other observations

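The 6 genes with a matching name and no protein_coding transcript are annotated as pseudogenes. Rps12l1 held 30.5 expected counts in replicate 1 and 0.98 in replicate 2, Rps3a2 held 15.2 and 8.86, and Rpl6l held 1.20 and 12.5. Rps4l held 2 and 8, Rps3a3 1.43 and 0, and Rpl32l 0 in both. Each was far below its parent gene among the members, for example 642 and 629 counts for Rps12.

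Among ribosome biogenesis factors, 5 of 15 with at least 100 counts had over 50% of TPM on non-coding models in both libraries, against 16.3% of all protein-coding genes. Nucleolin, Ncl, had 83.9 and 81.4% and the nucleolar GTPase Gnl3 79.2 and 81.0%. Of the 39 mitochondrial ribosomal protein genes with at least 100 counts 7 did, and among the other TOP messages 2 of 15, shares near that of all genes. The 2 were Tpt1, a growth-related protein, at 91.8 and 85.2% and Eef1b2 at 60.2 and 54.0%.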
